A study of Gallus gallus with 12 samples.

Results

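The genes described here encode the voltage-gated sodium and calcium channels, the potassium channels and their auxiliary subunits, as measured in embryonic chicken hearts. They were chosen by name: a probe set counted if it carried 1 gene symbol starting with KCN, SCN and a digit, CACNA, CACNB, CACNG or HCN and a digit, and if its mean log2 signal over the 12 arrays reached the 40th percentile of all probe sets that are not controls, a signal of 79.5 (log2 6.31), called the dim limit below. Each gene was represented by its brightest probe set. On the array, 99 genes had a probe set under such a symbol, and 42 of them passed the dim limit, out of 10276 genes tested under 1 symbol. The hearts came from 3 breeds, Tibetan, Shouguang and Dwarf Recessive White, whose full-sib fertilised eggs were incubated in hypoxia or in normoxia. That gave 6 groups of 2 arrays each, all of total RNA from embryonic heart on Affymetrix chicken arrays. How little oxygen the eggs received, when the hearts were taken, which sex the embryos had and how many hearts each array pooled was not given in the labels, and nothing says whether the arrays of a group came from separate embryos, so the p-values measure only the spread between these arrays.

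Ion channels open pores in the cell membrane and carry the currents of the cardiac action potential. Sodium channels give its upstroke, L-type calcium channels carry its plateau and trigger contraction, T-type calcium channels contribute to pacemaking, and several kinds of potassium channel repolarise the cell and hold its resting potential. Auxiliary subunits bind the pores and set how many reach the membrane and how they open. The labels name hypoxia and breed as the factors of the study, so the comparisons are hypoxia against normoxia within each breed, the average of these over the breeds, the differences between breeds in that effect, and the levels of the breeds.

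The heart label was checked against markers. Of 13 cardiomyocyte markers, 10 were measured, among them the contractile genes TNNT2, ACTC1 and MYL2, and their mean log2 signal per array lay between 13.53 and 14.04. Every array had been scaled to a trimmed mean signal of 500.1, and the median signal of an array was 134.2 to 155.0. Arrays of a group correlated at 0.916 to 0.927 over all probe sets that are not controls, and arrays of different groups at 0.912 to 0.928. The mean log2 signal of 14 genes on the female-specific W chromosome was 6.01 on Dwarf Recessive White normoxia replicate 1 and 8.09 to 9.60 on the other arrays. Tibetan arrays read 9.23 to 9.60. Shouguang arrays read 8.09 and 8.25 in hypoxia against 9.43 and 8.95 in normoxia. Dwarf Recessive White arrays read 9.49 and 8.15 in hypoxia against 6.01 and 8.42 in normoxia. This level was thus uneven between breeds and, in Shouguang hearts, apart between conditions. In whole hearts, fewer cells of a type and less RNA per cell cannot be told apart.

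The heart channel set was partly visible. Of the genes listed for their known part in cardiac currents, 13 passed the dim limit and 8 had a probe set below it. The 8 below the limit included HCN4, the main pacemaker channel, at a median log2 signal of 4.40 (range 3.36 to 7.06), KCNE1, the partner of KCNQ1 in the slow delayed rectifier current, at 5.96 (4.32 to 7.15), and KCNIP2, the partner of the transient outward channels, at 2.41 (2.16 to 5.06). CACNA1D, CACNA1H, KCNJ4, KCNA5 and KCNK3 were the others. The limit applied to the mean, and single arrays could lie above it. KCNK3 (median 6.44) was above the limit on 8 of the 12 arrays and CACNA1H (median 6.35) on 6. The signals of the 8 genes were not tested. At the limit itself, SCN2A (mean signal 82.2), KCNU1 (81.0) and KCNV1 (80.6) lay just inside it, and KCNS2 (79.4), KCNT2 (78.1) and KCNIP1 (77.3) just outside.

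Levels are given as mean log2 signal over 12 arrays ± the SD within groups. They order probe sets by brightness, which also depends on the probes, so no gene's level is set against another's. Among the pores of calcium channels, CACNA1C, the L-type pore of working myocardium, gave 10.14 ± 0.18. CACNA1G, a T-type pore, gave 7.96 ± 0.40. CACNA1E, the R-type pore, at 6.71 ± 1.18, and CACNA1I, another T-type pore, at 6.64 ± 0.86, each fell below the dim limit on some arrays.

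Of the calcium channel partners, CACNA2D1, an extracellular subunit that brings the pores to the membrane, gave 12.62 ± 0.16. CACNB2, the main cytoplasmic beta subunit of heart, gave 9.62 ± 0.40, its relative CACNB4 9.64 ± 0.32, and CACNA2D2 8.05 ± 0.22. CACNG4 and CACNG3, membrane-spanning proteins that in mammals also accompany glutamate receptors in brain, gave 7.42 ± 0.23 and 6.5 ± 1.2. In the sodium channel family, the beta subunits SCN2B and SCN3B gave 8.89 ± 0.24 and 7.93 ± 0.65, and the pore SCN2A, in mammals a channel of neurons, gave 6.36 ± 0.65.

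Voltage-gated potassium pores included KCNQ1, the pore of the slow delayed rectifier, at 10.21 ± 0.12, KCNH6, of the ERG family that carries the rapid delayed rectifier, at 8.45 ± 0.29, and KCND3, a transient outward pore, at 8.79 ± 0.44. The other transient outward pore, KCND2, gave 6.54 ± 0.80 and the ERG relative KCNH7 6.47 ± 0.76, while KCNG2 (7.62 ± 0.17) and KCNV1 (6.33 ± 0.40) encode silent subunits that modify other pores. Their partners were KCNAB2 at 9.24 ± 0.13 and KCNAB1 at 6.93 ± 1.02, both cytoplasmic beta subunits, the small membrane subunit KCNE4 at 8.73 ± 0.21, and KCNRG, a cytoplasmic regulator of channel assembly, at 8.15 ± 0.42.

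Inward rectifiers set the resting potential. The 6 whose mean passed the dim limit were above it on every array, while KCNJ1, KCNJ4, KCNJ6 and KCNJ16 had means under it. KCNJ2 and KCNJ12, the strong rectifiers of ventricle, gave 8.86 ± 0.19 and 8.89 ± 0.33. KCNJ3 and KCNJ5, which together form the acetylcholine-gated channel, gave 9.61 ± 0.23 and 7.40 ± 0.58. KCNJ8, an ATP-sensitive pore, gave 10.48 ± 0.14, and KCNJ15, a weaker rectifier best known from kidney, 7.74 ± 0.25.

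The tandem-pore channels carry background potassium current. KCNK7, a member that gives no current of its own in mammalian assays, reached 8.93 ± 0.12. The stretch-sensitive KCNK4, KCNK2 and KCNK10 gave 8.53 ± 0.29, 6.93 ± 0.61 and 6.43 ± 0.95, and KCNK13 and KCNK18 6.58 ± 0.61 and 6.57 ± 0.53. Of the calcium- and sodium-activated channels, the small-conductance pores KCNN1 and KCNN2 gave 8.48 ± 0.34 and 7.19 ± 0.34, the large-conductance pore KCNMA1 6.66 ± 0.34 and its beta subunit KCNMB4 9.0 ± 0.15. KCNT1, a sodium-activated pore, gave 7.20 ± 0.39. KCNU1, a sperm channel in mammals that is grouped here by family only, gave 6.34 ± 0.74. KCNN2 was the only 1 of the 42 placed on the Z chromosome. CACNB4, CACNB2, KCNJ5, CACNA1E and CACNA1I were read by probe sets whose name ending (_s_at) marks probes shared by several transcripts, so their signals may hold more than 1 transcript.

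**Figure D1:**
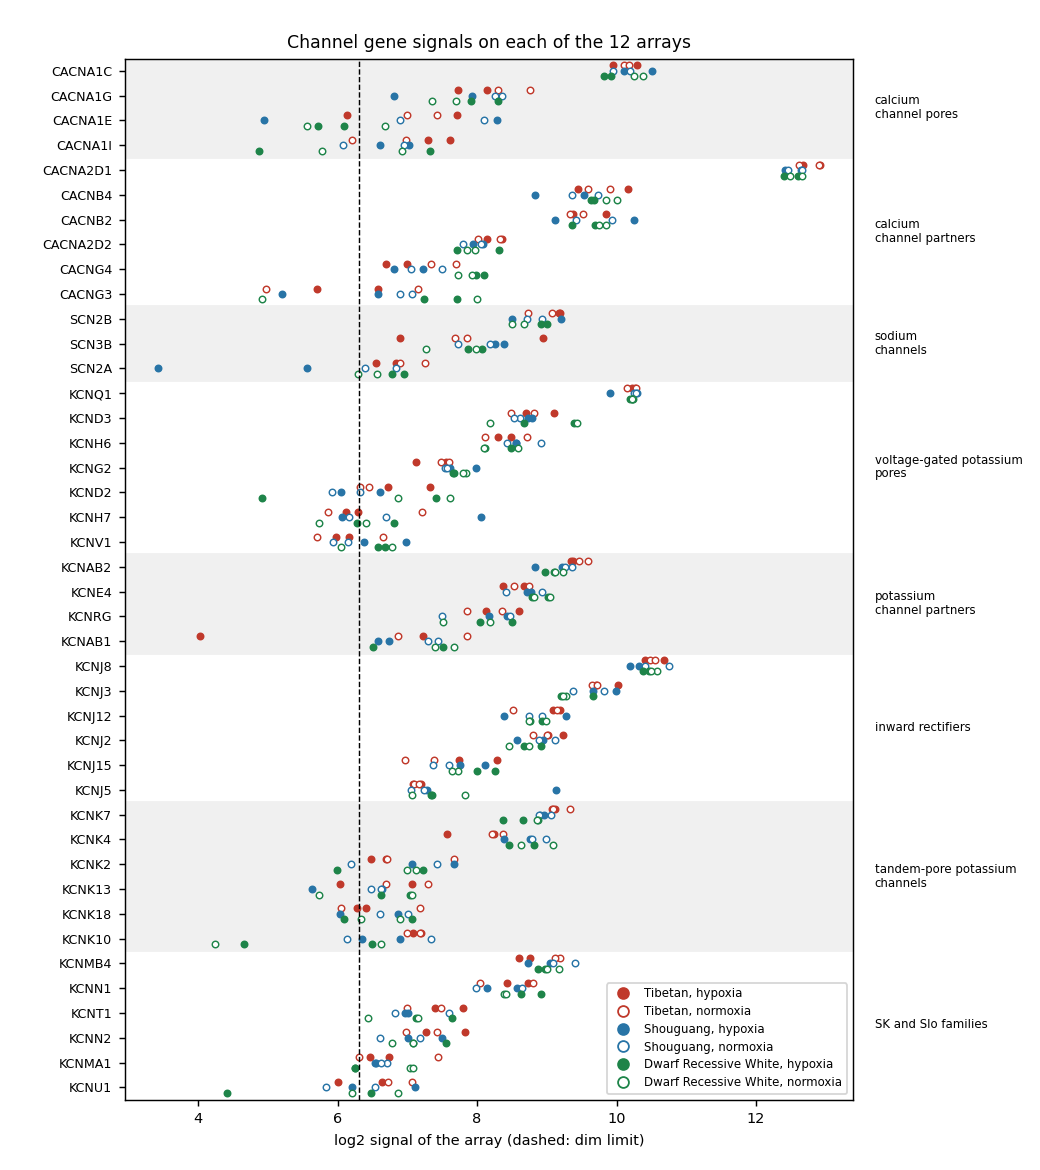
Log2 signal of each of the 42 channel genes (rows, grouped by role) on each of the 12 arrays, coloured by breed, filled for hypoxia and open for normoxia; the dashed line is the dim limit at 6.31. Bright genes such as CACNA2D1 and KCNQ1 sit in tight columns of points, and dim genes such as SCN2A, CACNG3 and KCNAB1 spread over 3 log2 units or more.

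How precisely a gene was measured went with how bright it was. The 21 dimmer genes (mean log2 6.33 to 7.93) had a median SD within groups of 0.61, and the 21 brighter ones (7.96 to 12.62) of 0.23. All 21 brighter genes were above the dim limit on all 12 arrays, against 7 of the 21 dimmer ones. The 14 genes with an array under the limit included KCNH7, above it on 5 arrays, the fewest. The median SE of the hypoxia effect within a breed was 0.33 for the channel genes and 0.26 over all probe sets tested.

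**Figure D2:**
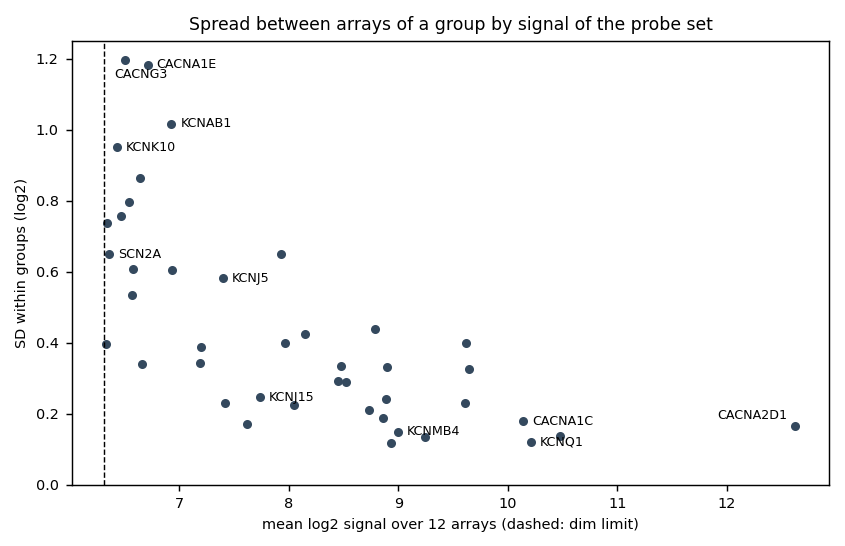
SD of log2 signal within groups (vertical axis) against mean log2 signal over 12 arrays (horizontal axis) for the 42 channel genes, 1 point per gene. The SD reaches 1.2 near the dim limit (dashed) and is 0.12 to 0.44 among the 21 brighter genes.

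No channel gene passed the test for a hypoxia effect, and their effects were spread around 0. The median hypoxia effect (log2, hypoxia minus normoxia) over the 42 genes was 0.02 in Tibetan, -0.02 in Shouguang and -0.03 in Dwarf Recessive White hearts, and -0.03 averaged over the breeds, where the median over all probe sets was 0.01. By limma with Benjamini-Hochberg adjustment over all 23063 probe sets tested, 0 of the 42 genes passed an adjusted p of 0.05 in any breed or on average, and the smallest adjusted p was 0.9997 in Tibetan, 0.812 in Shouguang, 0.749 in Dwarf Recessive White and 0.312 on average. Over all probe sets the test called 0.0% in Tibetan, 0.0% in Shouguang, 0.00434% in Dwarf Recessive White and 0.0564% on average. At an unadjusted p under 0.05, 3 channel genes were counted in Tibetan (7.14%, against 4.45% of all probe sets), 2 in Shouguang (4.76%, against 5.52%), 1 in Dwarf Recessive White (2.38%, against 6.33%) and 2 on average (4.76%, against 8.36%). The Tibetan share was the only 1 of these above that of all probe sets, and it rested on KCNJ15, KCNMB4 and KCNAB1.

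The arrays limit what these tests can show. Averaged over the breeds (6 arrays against 6), the 95% interval of the effect lay within ±0.5 log2 for 14 of the 42 genes and within ±1 for 34. Within a breed (2 arrays against 2), it lay within ±1 for 19 genes in Tibetan, 21 in Shouguang and 20 in Dwarf Recessive White. A miss of the threshold therefore does not show that a gene had the same level in both conditions.

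Arrays were also counted by their order. In Tibetan hearts both hypoxia arrays lay on 1 side of both normoxia arrays for 12 of the 42 genes (28.6%, against 32.7% of all probe sets), in Shouguang hearts for 15 (35.7%, against 32.2%), and in Dwarf Recessive White hearts for 16 (38.1%, against 37.2%). The hypoxia effect had 1 sign in all 3 breeds for 18 genes, 9 above 0 and 9 below (42.9%, against 32.1%). Without overlap and in 1 direction in all 3 breeds were 3 genes (7.14%, against 2.48%): KCNJ15 was higher in hypoxia, and KCNMB4 and KCNAB2 were lower. These 3 are singled out by their values, and none of them passed the limma test.

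**Figure D3:**
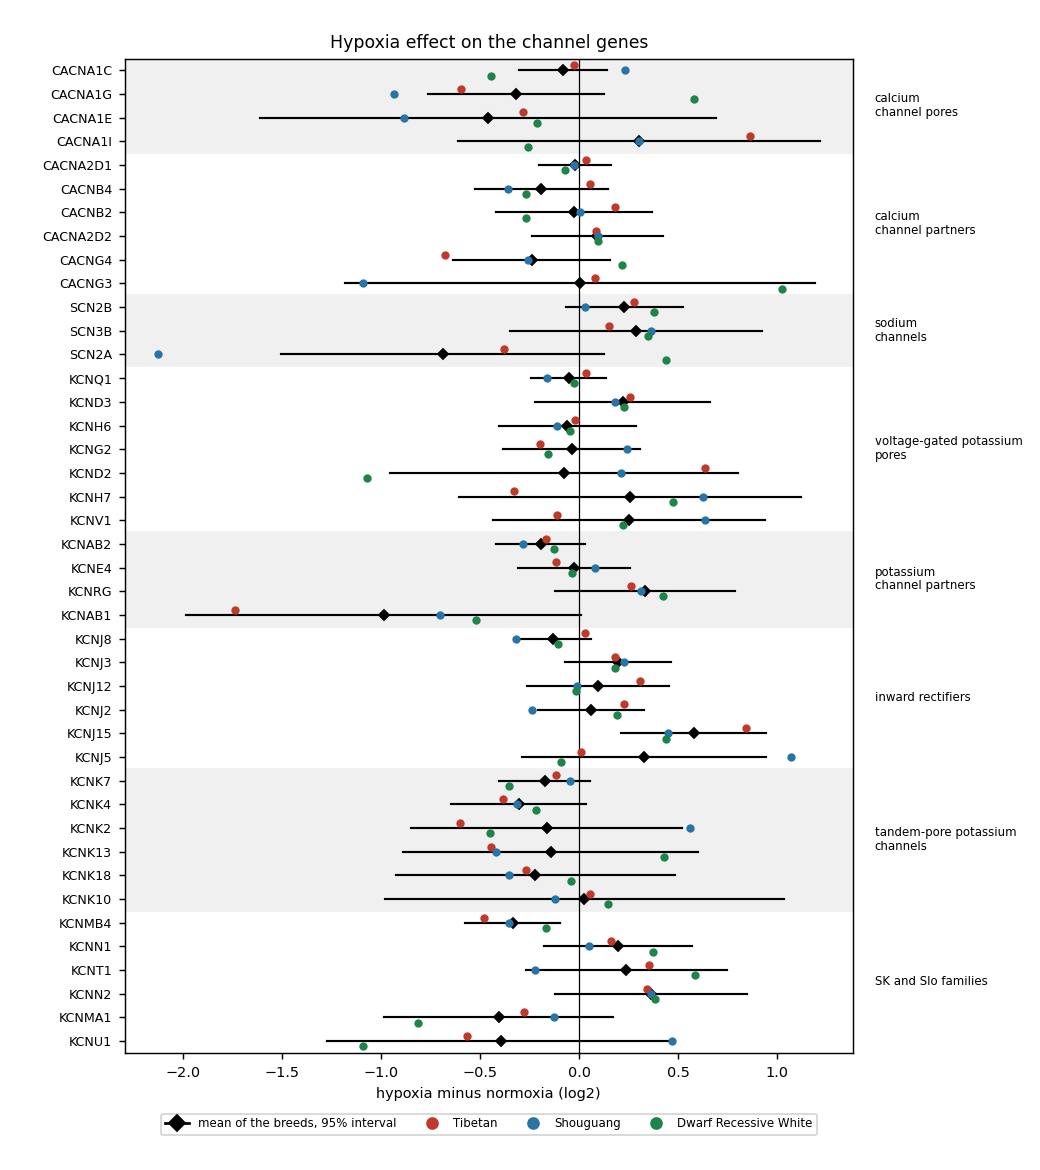
Hypoxia effect (log2, hypoxia minus normoxia) of the 42 channel genes, grouped by role; coloured points are the 3 breeds (2 arrays against 2) and black diamonds with bars the mean over the breeds with its 95% interval. The bars of KCNJ15 (0.58) and KCNMB4 (-0.34) lie to 1 side of 0, before adjustment for the number of tests, and all others cross it.

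Calcium channel pores gave no common direction. CACNA1C read 9.94 and 10.30 in Tibetan hypoxia against 10.11 and 10.18 in normoxia, and 10.10 and 10.51 in Shouguang hypoxia against 9.95 and 10.20. In Dwarf Recessive White hearts it read 9.92 and 9.82 in hypoxia against 10.26 and 10.38 in normoxia. Only in the last breed were the arrays apart, with an effect of -0.45 ± 0.18 (SE, limma adjusted p = 0.749), and all 5 tested CACNA1C probe sets lay between -0.33 and -0.47 there. The mean log2 signal of 10 cardiomyocyte markers was 13.53 to 13.54 in Dwarf Recessive White hypoxia and 13.84 to 13.85 in normoxia. Of these markers 9 had a negative effect, with a median of -0.08 and MYH7, a myosin heavy chain, at -2.15 ± 0.95, and 0 passed the limma test. Their part in the CACNA1C values was not tested. The difference between the Shouguang effect and the Dwarf Recessive White effect was 0.68 ± 0.25 (limma adjusted p = 0.999), and the mean effect over the breeds was -0.08 ± 0.10. On the gene's other tested probe sets, the Shouguang effect ranged from 0.05 to 0.63. Its difference from the Dwarf Recessive White effect ranged from 0.41 to 1.10 on them.

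CACNA1G, like SCN2A below, had hypoxia and normoxia arrays apart in every breed but not in the same direction. In Tibetan hearts it read 7.72 and 8.14 in hypoxia against 8.76 and 8.31 in normoxia, an effect of -0.60 ± 0.35. In Shouguang hearts it read 7.93 and 6.81 against 8.26 and 8.36, an effect of -0.94 ± 0.35 (limma adjusted p = 0.856), which was -0.38 without Shouguang hypoxia replicate 2 and -1.50 without replicate 1. In Dwarf Recessive White hearts it read 8.30 and 7.92 against 7.70 and 7.35, an effect of 0.58 ± 0.35. Hypoxia arrays were the lower ones in the first 2 breeds and the higher ones in the third. The Shouguang effect minus the Dwarf Recessive White effect was -1.52 ± 0.50 and the Tibetan effect minus the same was -1.18 ± 0.50, with limma adjusted p of 0.999 and 1.0, and these differences share the Dwarf Recessive White arrays. The first was -0.96 without Shouguang hypoxia replicate 2, and -2.08 to -0.96 with each array left out in turn. CACNA1E (mean effect -0.46 ± 0.53) and CACNA1I (0.30 ± 0.42) were too variable to place.

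On the chosen probe sets, the calcium channel partners had a median mean effect of -0.02 over 6 genes. CACNA2D1 ranged from 12.40 to 12.91 in hypoxia (median 12.63) and from 12.45 to 12.91 in normoxia (median 12.64), so the conditions overlapped throughout, with an effect of -0.02 ± 0.08 and a 95% interval from -0.20 to 0.16. In Dwarf Recessive White hearts this probe set gave -0.07 ± 0.14, while 2 of the gene's other probe sets gave -0.66 ± 0.15 (limma adjusted p = 0.319) and -0.52 ± 0.22, and the last -0.14 ± 0.12. On those 2 the Tibetan effect minus the Dwarf Recessive White effect was 0.78 ± 0.21 and 0.91 ± 0.32, against 0.10 ± 0.20 for the chosen CACNA2D1 probe set. CACNB2 gave -0.03 ± 0.18, and its other tested probe sets gave -0.65 ± 0.30, -0.24 ± 0.14, 0.12 ± 0.21 and 0.19 ± 0.18. CACNB4 gave -0.19 ± 0.15. The second CACNB4 probe set gave -0.66 ± 0.17 (limma adjusted p = 0.224), the smallest adjusted p among the other probe sets of these genes in that comparison. CACNG4 in Tibetan hearts read 6.70 and 6.99 in hypoxia against 7.70 and 7.34 in normoxia, an effect of -0.68 ± 0.32 with no overlap, while in Dwarf Recessive White hearts it read 8.10 and 7.98 against 7.93 and 7.73. CACNA2D2 (0.09 ± 0.15) and CACNG3 (0.00 ± 0.55) complete the partners.

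Among the sodium channel genes, SCN2A had the hypoxia effect farthest from 0 of any channel gene in any breed, on a signal close to the dim limit. SCN2A read 3.42 and 5.55 in Shouguang hypoxia against 6.84 and 6.40 in normoxia, an effect of -2.13 ± 0.65 (limma adjusted p = 0.812). Both hypoxia arrays were under the dim limit, and a floor at that limit gave an effect of -0.30. The effect was -1.06 without Shouguang hypoxia replicate 1 and -3.19 without replicate 2. In Tibetan hearts SCN2A read 6.55 and 6.84 against 7.26 and 6.89, and in Dwarf Recessive White hearts 6.95 and 6.78 against 6.29 and 6.56, so hypoxia was the lower condition in the first and the higher in the second. The Shouguang effect minus the Dwarf Recessive White effect was -2.57 ± 0.92, and -0.73 with the limit as a floor. The beta subunits SCN2B and SCN3B gave mean effects of 0.23 ± 0.14 and 0.29 ± 0.29, each above 0 in all 3 breeds. SCN2B arrays overlapped in Shouguang hearts (9.21 and 8.50 in hypoxia against 8.93 and 8.72 in normoxia) and were apart in the other breeds. SCN3B arrays overlapped in Dwarf Recessive White and Tibetan hearts (Tibetan 8.95 and 6.89 against 7.85 and 7.69) and were apart in Shouguang hearts.

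Among the voltage-gated potassium pores, KCNQ1 was the steadiest. It ranged from 9.91 to 10.29 in hypoxia (median 10.22) and from 10.14 to 10.28 in normoxia (median 10.25), with an effect of -0.05 ± 0.09 and a 95% interval from -0.24 to 0.14. KCNH6 ranged from 8.11 to 8.57 in hypoxia and from 8.10 to 8.92 in normoxia, with an effect of -0.06 ± 0.16. KCND3 gave 0.22 ± 0.20, and its arrays overlapped in Tibetan and Dwarf Recessive White hearts. That effect was 0.015 without Dwarf Recessive White normoxia replicate 2 and 0.43 without replicate 1.

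KCND2 spread widely in Dwarf Recessive White hearts, where it read 4.92 and 7.41 in hypoxia against 7.61 and 6.86 in normoxia. In Tibetan hearts it read 7.33 and 6.72 against 6.45 and 6.33. The Tibetan effect minus the Dwarf Recessive White effect was 1.71 ± 0.99, 0.47 without Dwarf Recessive White hypoxia replicate 1, 2.96 without its replicate 2, and 1.01 with signals under the dim limit raised to it. KCNH7 (0.26 ± 0.40), KCNG2 (-0.04 ± 0.16) and KCNV1 (0.25 ± 0.32) completed the group, whose median mean effect was -0.04.

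Of the potassium channel partners, KCNAB2 was lower in hypoxia on every array of its breed. It read 9.34 and 9.38 in Tibetan hypoxia against 9.60 and 9.47 in normoxia, 9.22 and 8.83 in Shouguang hypoxia against 9.26 and 9.35, and 8.98 and 9.11 in Dwarf Recessive White hypoxia against 9.23 and 9.11. In Dwarf Recessive White hearts the gap was smaller than the rounding of these values. The mean effect was -0.19 ± 0.10 (limma adjusted p = 0.658), and the gene's other tested probe sets gave 0.03 and -0.07.

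KCNAB1 read 4.02 and 7.23 in Tibetan hypoxia against 6.87 and 7.86 in normoxia, an effect of -1.74 ± 0.79 with overlapping arrays. The array at 4.02, Tibetan hypoxia replicate 1, decided its size: leaving it out gave a Tibetan effect of -0.14, and leaving out the other array of that group gave -3.34. Averaged over the breeds the effect was -0.99 ± 0.46 (limma adjusted p = 0.600), -0.45 without the array at 4.02 and -0.61 with the limit as a floor. It ranged from -1.52 to -0.45 with each array left out in turn. KCNE4 gave -0.02 ± 0.13 and KCNRG 0.33 ± 0.21, the latter above 0 in all 3 breeds but with overlapping arrays in each.

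KCNJ15 gave the smallest p of the 42 genes in the hypoxia comparisons averaged over breeds. In Tibetan hearts it read 7.74 and 8.29 in hypoxia against 6.96 and 7.38 in normoxia, in Shouguang hearts 7.75 and 8.12 against 7.60 and 7.37, and in Dwarf Recessive White hearts 8.00 and 8.26 against 7.73 and 7.65. All 6 hypoxia arrays (7.74 to 8.29) were above all 6 normoxia arrays (6.96 to 7.73). The mean effect was 0.58 ± 0.17, a signal 1.49-fold higher in hypoxia (limma adjusted p = 0.312), and leaving out each array in turn gave 0.49 to 0.67. The effect was 0.84 ± 0.29 in Tibetan, 0.45 ± 0.29 in Shouguang and 0.44 ± 0.29 in Dwarf Recessive White hearts, and the differences between breeds were within 0.41 with an SE of 0.41.

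None of the other inward rectifiers was apart in all 3 breeds. Arrays of the 2 conditions did not overlap for KCNJ2 in Tibetan, KCNJ5 in Shouguang, and KCNJ8 in Shouguang and Dwarf Recessive White hearts. KCNJ2 gave a mean effect of 0.06 ± 0.12, KCNJ12 0.09 ± 0.16 and KCNJ3 0.20 ± 0.12, the last within 0.18 to 0.23 in the 3 breeds. KCNJ8 read 10.19 and 10.33 in Shouguang hypoxia against 10.41 and 10.75 in normoxia, an effect of -0.32 ± 0.15 (limma adjusted p = 0.903), which was -0.15 without Shouguang normoxia replicate 2 and -0.49 without replicate 1. The KCNJ8 effect was -0.13 ± 0.09 on average, -0.08 without Shouguang normoxia replicate 2, and -0.19 to -0.08 with each array left out in turn. For KCNJ5, Shouguang hypoxia replicate 1 read 9.14, while the other 11 arrays read 7.06 to 7.82. The Shouguang effect of 1.07 ± 0.49 rested on that array and was 0.14 without it and 1.99 without replicate 2 of that group. The other tested KCNJ5 probe sets gave 1.04 ± 0.79 and 2.15 ± 0.75 in Shouguang, and in Dwarf Recessive White hearts -1.97 ± 0.79 and -1.74 ± 0.75, where the chosen one gave -0.09 ± 0.49. Their Shouguang effects minus those of Dwarf Recessive White were 3.01 ± 1.12 and 3.89 ± 1.07, against 1.16 ± 0.69 on the chosen probe set. The last was 0.24 without Shouguang hypoxia replicate 1 and 2.09 without replicate 2. None of these differences passed the limma test in the main fit.

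Tandem-pore channels had mean effects from -0.31 to 0.03. KCNK4 read 8.24 and 7.57 in Tibetan hypoxia against 8.22 and 8.37 in normoxia, 8.38 and 8.77 in Shouguang hypoxia against 8.78 and 8.99, and 8.46 and 8.82 in Dwarf Recessive White hypoxia against 8.62 and 9.09. It was without overlap in Shouguang hearts alone, with a mean effect of -0.31 ± 0.16 (limma adjusted p = 0.644). That effect was -0.19 without Tibetan hypoxia replicate 2, and -0.42 to -0.19 with each array left out in turn. KCNK7 in Dwarf Recessive White hearts read 8.38 and 8.65 in hypoxia against 8.88 and 8.86, an effect of -0.35 ± 0.18, while its second probe set gave 0.85 ± 0.49. KCNK2 (-0.16 ± 0.32), KCNK10 (0.03 ± 0.46), KCNK13 (-0.14 ± 0.34) and KCNK18 (-0.22 ± 0.32) had wide errors.

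KCNMB4, the beta subunit of the large-conductance channel, read 8.76 and 8.60 in Tibetan hypoxia against 9.19 and 9.12 in normoxia. In Shouguang hearts it read 9.04 and 8.73 against 9.09 and 9.40, and in Dwarf Recessive White hearts 8.97 and 8.87 against 9.18 and 9.0. Within each breed every hypoxia array was the lower, although over all breeds the conditions met (8.60 to 9.04 against 9.0 to 9.40). The effect was -0.48 ± 0.19 in Tibetan, -0.36 ± 0.19 in Shouguang and -0.17 ± 0.19 in Dwarf Recessive White hearts and -0.34 ± 0.11 on average, a signal 1.26-fold lower in hypoxia (limma adjusted p = 0.398). Its pore KCNMA1 gave -0.41 ± 0.27, which was -0.22 without Tibetan normoxia replicate 1, and -0.60 to -0.22 with each array left out in turn. Its Dwarf Recessive White arrays read 6.25 and 6.24 in hypoxia against 7.04 and 7.08 in normoxia. Both of these hypoxia arrays were under the dim limit, and KCNMA1 was above it on 9 of the 12 arrays. KCNN1 (0.20 ± 0.17), KCNN2 (0.36 ± 0.22), KCNT1 (0.24 ± 0.23) and KCNU1 (-0.40 ± 0.40) made up the family.

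Smooth muscle markers had mostly negative effects beside these values. Of 10 markers, 7 were measured, and 6 of the 7 had a mean effect below 0, among them MYLK at -0.31 and MYL9 at -0.22, although 0 of them passed the limma test and 3 had an unadjusted p under 0.05. That is 42.9%, against 8.36% of all probe sets. Their summed signal, which weighs the brightest genes most, did not overlap between the conditions within any breed. It was 31650 to 31757 in hypoxia against 38513 to 39648 in normoxia in Tibetan, 35713 to 38681 against 39865 to 49290 in Shouguang, and 38665 to 40877 against 41464 to 44046 in Dwarf Recessive White hearts. The mean log2 signal of these markers overlapped in Shouguang hearts (11.44 to 11.67 in hypoxia against 11.58 to 11.84 in normoxia) and was apart in the other breeds. ACTA2 was under the dim limit. The part of the smooth muscle markers in the values of KCNMB4 and of KCNMA1, whose channel is prominent in smooth muscle, was not tested. KCNMB1, another beta subunit of the large-conductance channel, was under the dim limit at a mean log2 signal of 4.82.

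**Figure D4:**
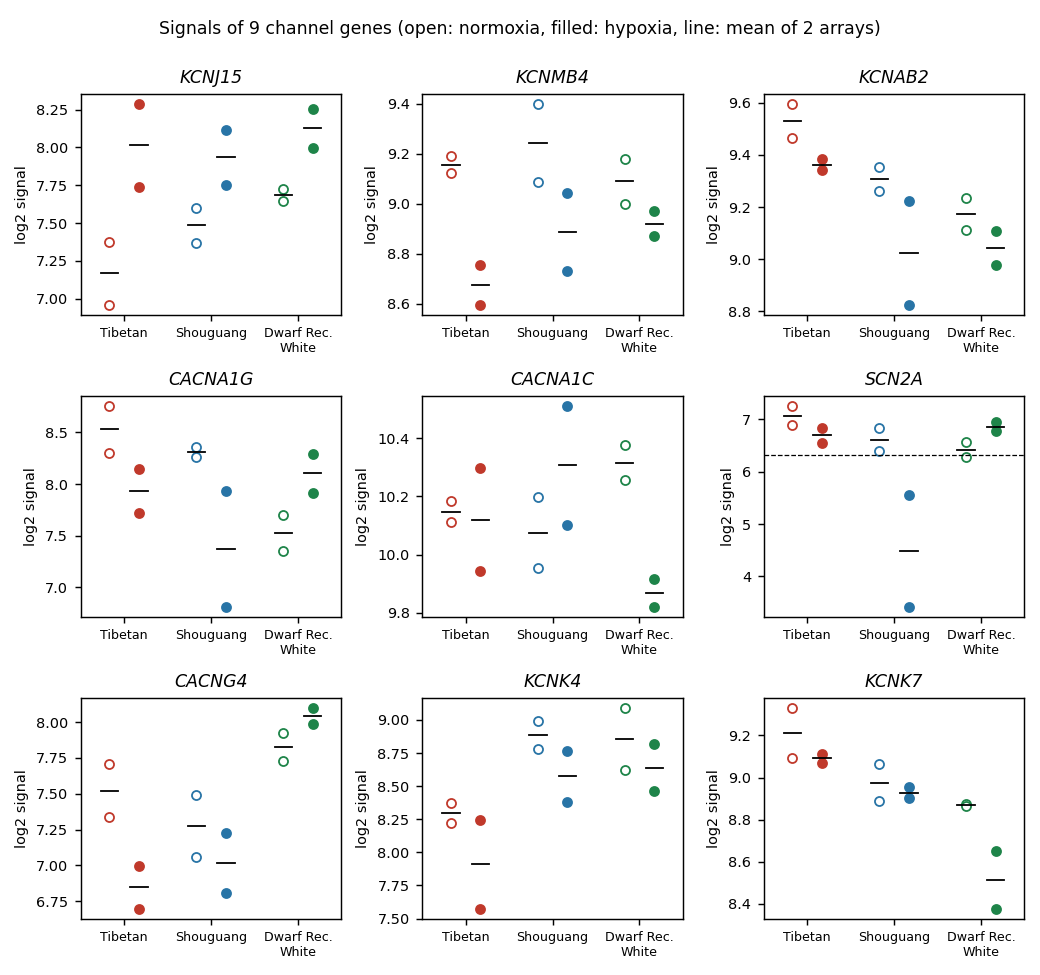
Log2 signal of 9 channel genes on each array by breed (open circles normoxia, filled circles hypoxia, bars the mean of 2 arrays; the vertical axes differ and do not start at 0). KCNJ15 is higher and KCNMB4 lower in hypoxia in each breed, CACNA1G runs the other way in Dwarf Recessive White, and CACNG4 is highest in that breed.

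Between breeds, the hypoxia effect of 0 channel genes differed at an adjusted p of 0.05 by limma. The smallest adjusted p was 0.9999 for Tibetan minus Shouguang, 0.9997 for Tibetan minus Dwarf Recessive White and 0.999 for Shouguang minus Dwarf Recessive White, and over all probe sets each test called 0.0%. At an unadjusted p under 0.05 there were 0, 1 and 3 channel genes in these 3 comparisons (0.0%, 2.38% and 7.14%, against 2.88%, 4.0% and 4.56% of all probe sets): CACNA1G in the second, and CACNA1G, SCN2A and CACNA1C in the third. The median SE of such a difference was 0.47 for the channel genes, so that a difference within ±1 could be bounded for 13, 14 and 14 of them. KCNJ2 (Tibetan minus Shouguang 0.47 ± 0.30) and KCNJ8 (0.35 ± 0.22) were the others named by their p in the first comparison, with SCN2A (1.75 ± 0.92, and -0.08 with the limit as a floor) and KCNJ5 (-1.06 ± 0.69). Without Shouguang hypoxia replicate 1 these were 0.28 for KCNJ2, 0.68 for SCN2A and -0.13 for KCNJ5, and KCNJ8 was 0.18 without Shouguang normoxia replicate 2. With each array left out in turn, KCNJ2 gave 0.28 to 0.65 and KCNJ8 0.18 to 0.52. SCN2A gave 0.68 to 2.81 and KCNJ5 -1.98 to -0.13.

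No channel gene passed the test for a difference in level between breeds, averaged over both conditions (4 arrays a breed). The median difference was 0.10 for Tibetan minus Shouguang, 0.06 for Tibetan minus Dwarf Recessive White and 0.01 for Shouguang minus Dwarf Recessive White. By limma 0 of the 42 genes passed an adjusted p of 0.05 in any of the 3 comparisons, where the test called 0.551%, 0.759% and 1.33% of all probe sets, and the smallest adjusted p was 0.181, 0.146 and 0.129. At an unadjusted p under 0.05 there were 4, 7 and 4 channel genes (9.52%, 16.7% and 9.52%, against 12.2%, 12.3% and 11.7%). The arrays of the breeds did not overlap for 2 genes between Tibetan and Shouguang (4.76%, against 7.22%), for 7 between Tibetan and Dwarf Recessive White (16.7%, against 7.7%) and for 2 between Shouguang and Dwarf Recessive White (4.76%, against 7.22%). Each breed's arrays enter a pair of these comparisons, so the 3 are not independent. None of the 27 other tested probe sets of channel genes passed in these comparisons. For Tibetan minus Shouguang, the second CACNG3 probe set (mean log2 6.42) gave 1.40 ± 0.41 (limma adjusted p = 0.158), against -0.33 ± 0.67 on the chosen one. For Shouguang minus Dwarf Recessive White they gave -1.27 ± 0.41 and -0.53 ± 0.67, and for Tibetan minus Dwarf Recessive White 0.14 ± 0.41 and -0.87 ± 0.67. The probe sets of CACNB2 also differed in sign for Tibetan minus Shouguang. Its chosen one gave -0.16 ± 0.22, and the others 0.82 ± 0.37, 0.41 ± 0.18, 0.26 ± 0.26 and -0.30 ± 0.22.

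**Figure D5:**
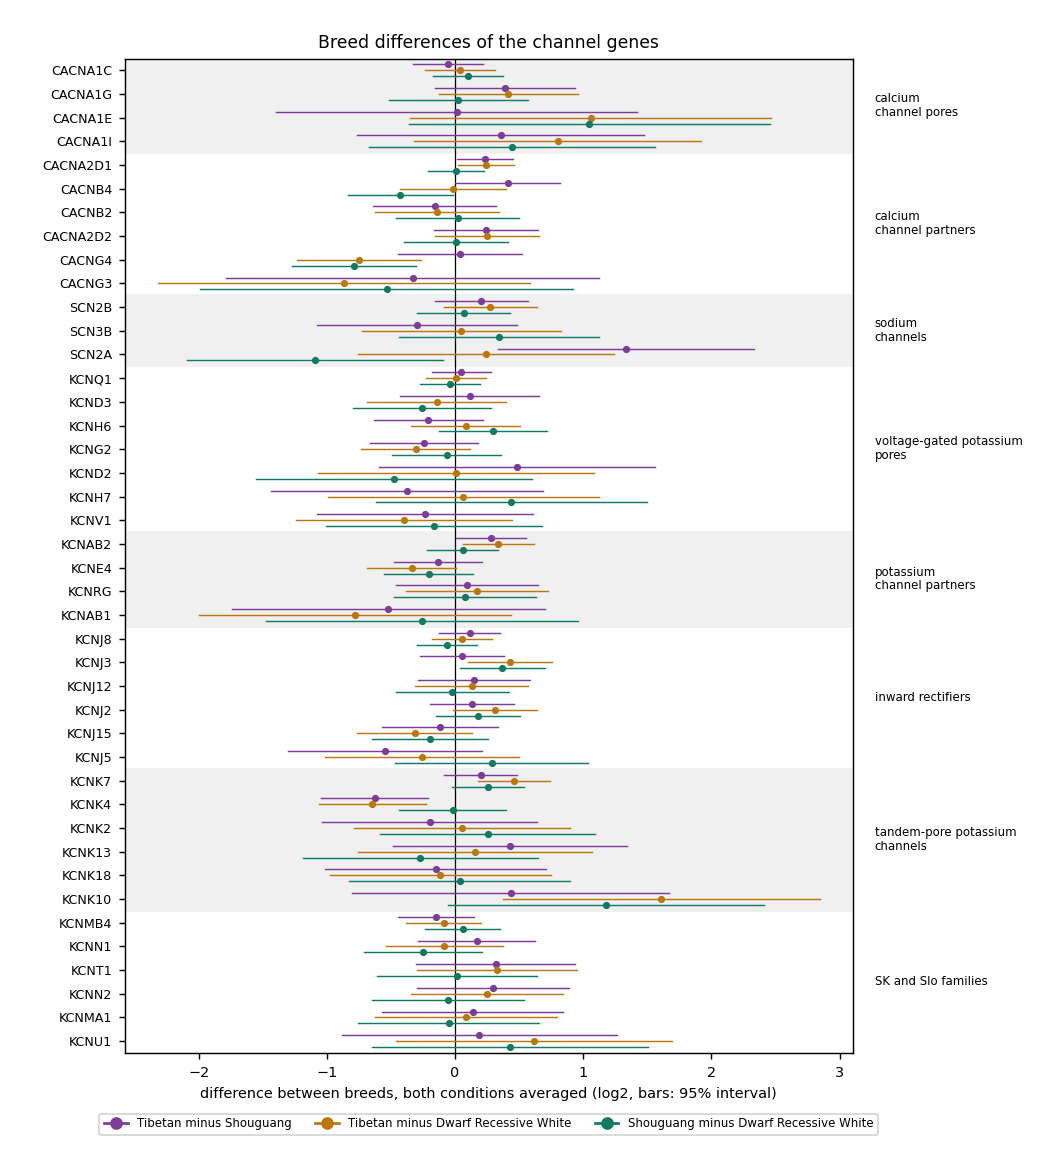
Difference in log2 signal between breeds, both conditions averaged, for the 42 channel genes grouped by role; points are the 3 comparisons (4 arrays against 4) and bars their 95% intervals, before adjustment. CACNG4, KCNK4 and KCNK7 lie away from 0 with narrow bars, and KCNK10 and SCN2A with wide ones.

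CACNG4 had its highest signals in Dwarf Recessive White hearts. Its 4 arrays there read 7.73 to 8.10, above those of Tibetan (6.70 to 7.70) and Shouguang hearts (6.81 to 7.49), with no overlap. Tibetan minus Dwarf Recessive White was -0.75 ± 0.22 (limma adjusted p = 0.173) and Shouguang minus Dwarf Recessive White -0.79 ± 0.22 (limma adjusted p = 0.129). Of 13 neural and neural crest markers, 7 were measured (SYT1, GAP43, DBH and NEFM were under the dim limit), 5 of the 7 had a negative difference in each of these comparisons, and their summed signal was 5873 to 9317 in Dwarf Recessive White, 1862 to 3211 in Tibetan and 1612 to 2787 in Shouguang hearts. Within the list, TH, the first enzyme of catecholamine synthesis, differed by -2.30 ± 0.28 for Tibetan minus Dwarf Recessive White (limma adjusted p = 0.0028) and by -3.41 ± 0.28 for Shouguang minus Dwarf Recessive White (limma adjusted p = 0.000156), and it was the only 1 of the 7 that passed. Without TH the sum was 1545 to 2033 in Dwarf Recessive White, 1353 to 1713 in Tibetan and 1108 to 2174 in Shouguang hearts, and these ranges overlapped. Their part in the CACNG4 values was not tested.

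KCNK4 and KCNK7 went opposite ways in Tibetan hearts. KCNK4 read 7.57 to 8.37 there, below Shouguang (8.38 to 8.99) and Dwarf Recessive White hearts (8.46 to 9.09), with differences of -0.63 ± 0.19 (limma adjusted p = 0.181) and -0.65 ± 0.19 (limma adjusted p = 0.173). KCNK7 read 9.07 to 9.33 in Tibetan, 8.89 to 9.06 in Shouguang and 8.38 to 8.88 in Dwarf Recessive White hearts, so that the 3 breeds did not overlap in that order. Tibetan minus Dwarf Recessive White was 0.46 ± 0.13 for KCNK7 (limma adjusted p = 0.146), a signal 1.37-fold higher, and 0.60 ± 0.35 on its second probe set. The steps in between, 0.20 ± 0.13 and 0.26 ± 0.13, did not exceed their spread by the test.

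KCNK10 read 7.0 to 7.20 in Tibetan, 6.14 to 7.34 in Shouguang and 4.24 to 6.62 in Dwarf Recessive White hearts. Tibetan minus Dwarf Recessive White was 1.61 ± 0.57 (limma adjusted p = 0.272), without overlap. It was 1.01 without Dwarf Recessive White normoxia replicate 2, and 1.01 to 2.21 with each array left out in turn. The difference was 0.68 with a floor at the dim limit and 3.20 with the W-linked level of each array in the fit (limma adjusted p = 0.0589). Of the remaining genes without overlap between these 2 breeds, KCNAB2 differed by 0.34 ± 0.13 (9.34 to 9.60 against 8.98 to 9.23), while its other probe sets gave 0.09 and -0.07. KCNE4 (-0.34 ± 0.16) and KCNG2 (-0.31 ± 0.19) had lower signals in Tibetan hearts, and neither passed the test. The second KCNE4 probe set gave -0.05 ± 0.14.

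Other genes were named by their p without a gap between the breeds. KCNJ3 had a mean over 4 arrays of 9.77 in Tibetan, 9.71 in Shouguang and 9.34 in Dwarf Recessive White hearts, and the arrays of all 3 breeds overlapped. Its differences from the last breed were 0.43 ± 0.15 and 0.37 ± 0.15, and 0.26 and 0.33 on its second probe set. CACNA2D1 read 12.61 to 12.91 in Tibetan, 12.41 to 12.66 in Shouguang and 12.40 to 12.66 in Dwarf Recessive White hearts, with Tibetan differences of 0.23 ± 0.10 and 0.24 ± 0.10, and its 3 other probe sets gave 0.13 to 0.16 and 0.10 to 0.23.

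For CACNB4, the mean was 9.37 in Shouguang (8.84 to 9.73) and 9.79 in Dwarf Recessive White hearts (9.63 and above), with overlapping arrays. The difference of -0.43 ± 0.19 was -0.25 without Shouguang hypoxia replicate 1, and -0.60 to -0.25 with each array left out in turn. On the gene's other probe set it was 0.20. SCN2A differed by 1.33 ± 0.46 for Tibetan minus Shouguang (limma adjusted p = 0.239) and by -1.09 ± 0.46 for Shouguang minus Dwarf Recessive White, and by 0.42 and -0.19 with the limit as a floor. Without Shouguang hypoxia replicate 1 these were 0.80 and -0.56, and with each array left out in turn 0.80 to 1.87 and -1.63 to -0.56. On the chosen probe sets, the calcium channel pores had a median difference of 0.61 for Tibetan minus Dwarf Recessive White. There 4 of 4 pores were above 0 and 0 of 4 past an unadjusted p of 0.05. Every other median of a role group in these 3 comparisons lay between -0.21 and 0.27. The sign for the pores depended on the probe set. The chosen CACNA1E probe set gave 1.06 ± 0.65 and the gene's second one -0.08 ± 0.59. The chosen CACNA1C probe set gave 0.04, and its others -0.33, 0.08, -0.09 and 0.23. CACNA1E and CACNA1I also fell below the dim limit on some arrays.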

How the data were processed

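Signal intensities of 38535 probe sets on 12 Affymetrix chicken arrays, 2 for each of 3 breeds in hypoxia and normoxia, were used as deposited. Per the submitters' processing notes the authors made these intensity values with GCOS (version not given in the sources used), and a trimmed mean (2% at each end) of 500.1 on every array shows that arrays were scaled to a common level. Arrays give no read depth, so their number limits the precision. The 96 control probe sets were left out, signals were taken to log2, and probe sets with a mean under the 40th percentile were dropped, leaving 23063. Of all probe sets, 27178 carried 1 gene symbol, 177 several and 11180 none in the platform annotation, and genes were named only from the first kind. Chromosomes Z and W were looked up in RefSeq by gene.

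A single limma model (R 4.3.3, limma 3.58.1) with 6 group means over all 12 arrays and an intensity trend gave every comparison, with Benjamini-Hochberg adjustment over all probe sets at 0.05 and 95% intervals that are not adjusted. Tables and plots used Python 3.11.15. The fit was tested on simulated data. Genes were named if they passed in any comparison, were among the 4 with the smallest p in a comparison, or were listed heart channel genes, some of which are not reported here. The members and lists were chosen with earlier results of these data known. Alternatives were other filters, scalings, an offset, no trend, array weights, a replicate block, a W-linked covariate, other probe sets, fewer arrays and, added after seeing the data, a floor at the dim limit.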

Additional observations from a re-analysis of the deposited data

How the results depend on the processing

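The count of 0 channel genes past the test held in 246 of 249 recomputed counts over the 10 comparisons. In the other 3 it was 1. Most settings called no probe set at all for the hypoxia effect in Tibetan and Shouguang hearts and for its differences between breeds. There the count could only be 0, so the 246 is no measure of stability. With the replicate number as a block the count of channel genes was 1 for Tibetan minus Shouguang levels, through CACNA2D1 (0.23, limma adjusted p = 0.041). It was also 1 for Tibetan minus Dwarf Recessive White levels. Leaving out each array in turn gave 0 to 1 for Tibetan minus Shouguang levels, the 1 being SCN2A (1.87, limma adjusted p = 0.0495) without Shouguang hypoxia replicate 2, and 0 elsewhere. Same-numbered arrays correlated in their deviations at 0.059 to 0.199 over 15 pairs of groups, all positive and over 0.1 in 7. The numbers were not taken as pairs, and a difference shared by them would stay in the spread of the main fit. The block raised the calls over all probe sets from 127 to 605 for Tibetan minus Shouguang, and CACNA2D1 read higher on replicate 2 than on replicate 1 in all 6 groups. The block changed no other count of channel genes. The W-linked covariate lowered the calls over all probe sets from 127 to 25 for Tibetan minus Shouguang levels. For Tibetan minus Dwarf Recessive White levels they fell from 175 to 15, and for Shouguang minus Dwarf Recessive White levels from 306 to 148. Without the intensity trend these calls were 18, 28 and 100. Of the values of named genes, 32 reversed in sign and 1247 did not, and the cause was not tested. The 1247 is no measure of stability either. Many of the alternatives, such as no trend or leaving out an array of a breed not compared, cannot change an effect. Of 27 other probe sets of channel genes, 12 to 20 had the sign of the chosen one, depending on the comparison. Reversed on another probe set of the gene were KCNK7 (0.85 for hypoxia in Dwarf Recessive White), KCNAB2 (-0.23 for Tibetan minus Shouguang) and CACNB4 (0.20 for Shouguang minus Dwarf Recessive White). For mean hypoxia the reversed ones were CACNA1C (0.0514 and 0.125), CACNB2 (0.12 and 0.19) and KCNJ5 (-0.33). Further CACNB2 probe sets kept the sign of the chosen one, at -0.24 and -0.65. With the floor, SCN2A gave -0.0778 for the Tibetan minus Shouguang difference in hypoxia effect and KCND2 0.13 for mean hypoxia, and KCND2 gave 0.081 with the W-linked covariate. Leaving out single arrays moved mean hypoxia effects across 0 for CACNB2 (-0.22 to 0.16), CACNA2D1 (-0.0702 to 0.0286), KCNQ1 (-0.12 to 0.0126), KCNH6 (-0.16 to 0.0403), KCNJ2 (-0.0027 to 0.12) and KCND2 (-0.49 to 0.34). A group of 2 arrays, and signals near background, limit what can be seen.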

Other observations

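Genes that work beside the channels were measured on the same arrays, and by limma 0 of them passed in the mean hypoxia effect, where 0.0564% of all probe sets did. Of 27 channel partners and scaffolds, 23 were measured, 12 above 0 and 11 below, with a median of 0.03 and 5 at an unadjusted p under 0.05 (21.7%, against 8.36% of all probe sets). ABCC8, the sulfonylurea receptor subunit of ATP-sensitive channels, gave 0.28 ± 0.10 (SE, limma adjusted p = 0.451), DPP6, a partner of transient outward pores, 0.86 ± 0.38 and RRAD, a small GTPase that restrains L-type channels, 0.42 ± 0.19. Of 20 pumps and exchangers, 14 were measured, 3 above 0 and 11 below, with a median of -0.06 and 0 at an unadjusted p under 0.05 (0.0%, against 8.36%). ATP2A2, the calcium pump of the sarcoplasmic reticulum, gave -0.06 ± 0.04. Of 34 other channels, 28 were measured, 12 above 0 and 16 below, with a median of -0.03 and 2 at an unadjusted p under 0.05 (7.14%, against 8.36%). ITPR3, a calcium release channel, gave -0.46 ± 0.15 (limma adjusted p = 0.387) and HVCN1, a proton channel, 0.32 ± 0.13.

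Between breeds, 3 genes of these lists passed the test, 1 in each comparison, among 23 partners, 14 pumps and 28 other channels measured. Over all probe sets the test called 0.551% for Tibetan minus Shouguang, 0.759% for Tibetan minus Dwarf Recessive White and 1.33% for Shouguang minus Dwarf Recessive White. GPD1L, an enzyme related to glycerol phosphate dehydrogenase, was higher in Tibetan than in Shouguang hearts by 0.78 ± 0.14 (SE, limma adjusted p = 0.0371). ORAI1, the pore of store-operated calcium entry, was higher in Tibetan than in Dwarf Recessive White hearts by 0.75 ± 0.12 (limma adjusted p = 0.0158). CLCN4, a chloride and proton exchanger, was higher in Shouguang than in Dwarf Recessive White hearts by 0.84 ± 0.16 (limma adjusted p = 0.0276). The alternatives were followed for channel genes only, so GPD1L, ORAI1, CLCN4 and TH were not checked in other settings or on other probe sets. Over all probe sets, fewer calls were made in these comparisons with the W-linked covariate and without the intensity trend, as given above.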
